A study of Bos taurus with 2 samples.

Results

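Collagens are the structural proteins of the extracellular matrix, built from 3 chains wound into a triple helix. Fibrillar collagens form the load-bearing fibres of connective tissue, type IV collagens form the meshwork of basement membranes, type VI collagens form beaded filaments around cells, and FACIT collagens sit on the surface of fibrils. Chains are hydroxylated and folded in the endoplasmic reticulum, exported, trimmed of their propeptides and crosslinked outside the cell. In the early embryo, mesenchymal cells are the main source of fibrillar collagens, while neuroepithelium lies on a basement membrane.

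The collagen genes were taken as every gene of the count table whose symbol is COL, a number, A and a number. This gave 44 of 17846 genes: 11 fibrillar, 6 of type IV, 5 of type VI, 10 FACIT and 12 others. All 44 had at least 1 count in the kept cells, 27 had 100 or more, and 17 had 1 to 99. The embryos were bovine chimeras, host embryos into which bovine embryonic stem cells had been incorporated, collected by flushing at day 25. They were digested with papain and DNase, sorted and profiled by the 10x Genomics 3′ v3.1 droplet method. The 2 samples are replicates of 1 group, with no untreated or non-chimeric sample, so cell classes were compared within the same suspensions. Neither the gate of the sort nor whether the replicates came from separate embryos is given in the sources used here, and host cells were not separated from donor-derived cells. The p-values therefore rest only on how far class differences varied between these 2 samples, a spread largely pooled over genes that may be technical.

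Each cell was placed by the genes it carried. Collagen VI-positive cells held 2 or more UMIs (molecular tags, so that reads copied from the same captured transcript count only 1 time) over COL6A1, COL6A2 and COL6A3. Neurons held a UMI of 3 or more of TUBB3, DCX, ELAVL3, ELAVL4 and STMN2, and SOX2-positive cells held a SOX2 UMI without meeting the neuron rule. Neurons could hold SOX2 as well, and 454 of the 935 neurons did. PAG- or PRP-high cells took 0.5% or more of their UMIs, and 10 or more UMIs, from pregnancy-associated glycoprotein or prolactin-related protein genes, which mark bovine trophoblast. In replicates 1 and 2 these rules gave 40 and 79 collagen VI-positive cells, 805 and 1097 SOX2-positive cells, 426 and 509 neurons, and 12 and 12 PAG- or PRP-high cells. The remaining 642 and 705 cells met no rule, and 14 and 18 cells met several and entered no class. COL6A1, COL6A2 and COL6A3 chose the first class, so their levels in it are a description and were not tested.

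The deposited libraries held 11182089 and 15427708 UMIs, and 6 barcodes occurred in both. Median depth differed between classes: 9174 and 11406 UMIs per collagen VI-positive cell, 5611 and 6479 per SOX2-positive cell, and 7259.5 and 8077 per neuron. The median share of ribosomal protein UMIs was 20.9% and 26.3% in collagen VI-positive cells against 4.08% and 6.40% in SOX2-positive cells and 7.28% and 12.1% in neurons. Collagen VI-positive cells carried the mesenchymal proteoglycans DCN (3143 and 4039 CPM, UMIs of the gene per 1000000 UMIs of the class) and LUM (1089.8 and 1510.2 CPM). They also carried APOA1 (16549 and 16459 CPM), RBP4 (8436 and 7661 CPM) and KRT19 (6238 and 6664 CPM), which are known from endoderm and epithelium, while EPCAM, CDH1, APOA2 and AFP were at 0 UMIs. The mesenchymal transcription factors PRRX1 and TCF21 were at 0 CPM in replicate 1 and at 4.69 and 3.52 CPM in replicate 2. The class is therefore called by its rule and not by a cell type. The summed levels of the 10 mesenchyme markers were 7911 and 9961 CPM in it, against 1903 and 2419 CPM in SOX2-positive cells. The summed levels of the 5 endothelial markers were 110.3 and 111 CPM, against 12.2 and 8.88 CPM in SOX2-positive cells, with PECAM1 and CDH5 at 0. The summed levels of the 7 endoderm markers were 24993 and 24137 CPM in it, against 482 and 599 CPM in SOX2-positive cells. APOA1 and RBP4 gave nearly all of that sum. FOXA2 was lower than in SOX2-positive cells (5.38 and 11.7 CPM against 270.5 and 282 CPM), as was TTR (2.69 and 0 CPM against 15.3 and 49.0 CPM). AHSG stood at 0 and 4.69 CPM. The part of depth, ribosomal share and these markers in the results was not tested, except as stated for ribosomal share.

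Collagen transcripts made up a far larger part of the RNA of collagen VI-positive cells than of any other class. All 44 genes together stood at 40931 and 38732 CPM in collagen VI-positive cells, 1218 and 1221 CPM in SOX2-positive cells, 676 and 745 CPM in neurons, 90.4 and 93.5 CPM in PAG- or PRP-high cells and 1397 and 1444 CPM in the remaining cells. The values of both replicates lay close together within a class, and no class overlapped another. The median collagen VI-positive cell gave 3.87% and 3.38% of its UMIs to collagens, against 0.111% and 0.108% in the median SOX2-positive cell. The 119 collagen VI-positive cells, 2.73% of the 4359 kept cells, held 61.3% of the 78712 collagen UMIs. Over 50% of a gene's UMIs lay in these cells for 11 of the 27 genes with 100 or more UMIs, COL6A1, COL6A2 and COL6A3 among them, and under 10% for 7.

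**Figure D1:**
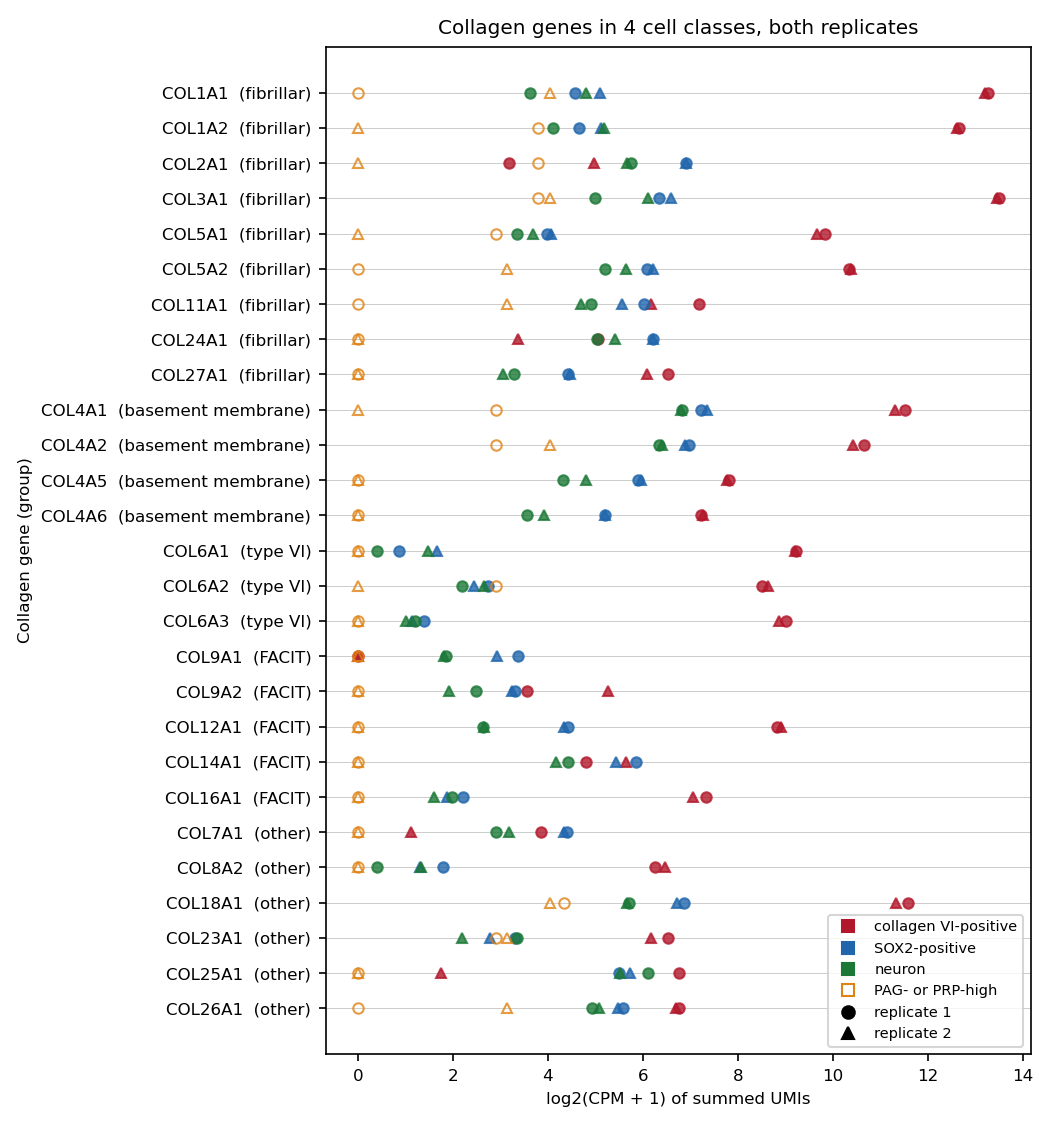
Level of each of the 27 collagen genes with 100 or more UMIs, as log2(CPM + 1) of the UMIs summed per class (x axis); circles are replicate 1, triangles replicate 2, and colours are 4 cell classes. COL1A1, COL1A2 and COL3A1 lie farthest to the right in collagen VI-positive cells. COL2A1, COL24A1 and COL9A1 lie to the left of SOX2-positive cells there, as does COL7A1, which was not called.

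The mixture of collagens differed too. Fibrillar genes gave 74.2% and 76.0% of the collagen UMIs of collagen VI-positive cells, against 40.1% and 42.0% in SOX2-positive cells and 33.7% and 42.5% in neurons. Type IV genes gave 12.0% and 11.1% in collagen VI-positive cells, against 30.5% and 31.4% in SOX2-positive cells and 33.6% and 32.0% in neurons. Collagen VI-positive cells thus lay above the other classes in the fibrillar share and below them in the type IV share in both replicates, though their type IV level in CPM was 13.3 and 11.2 times that of SOX2-positive cells. FACIT genes gave 1.60% and 1.82% in collagen VI-positive cells and 8.63% and 6.79% in SOX2-positive cells. These shares describe the libraries and were not tested.

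**Figure D2:**
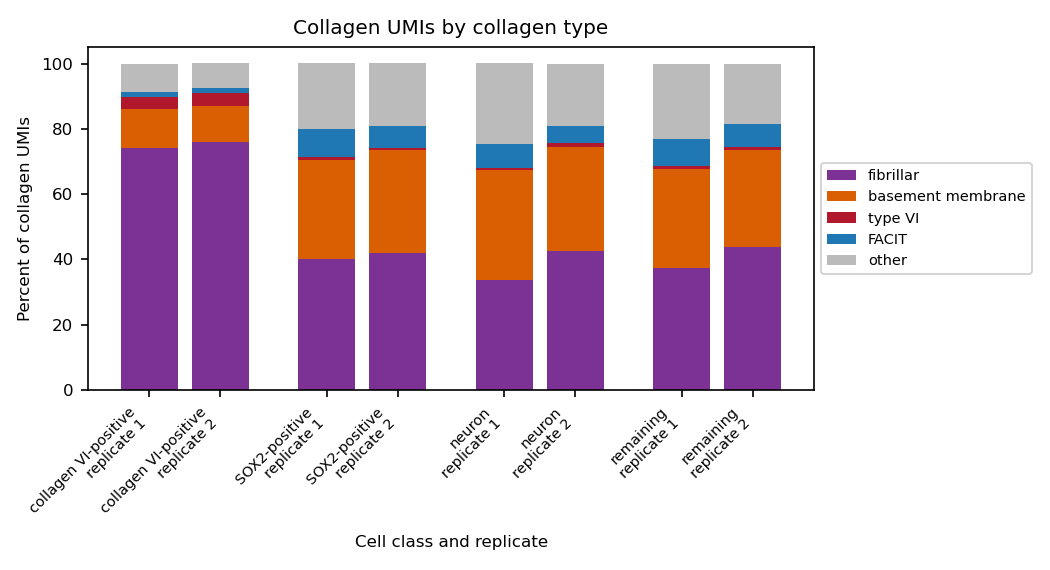
Share of collagen UMIs (y axis, percent) that came from each collagen type, for 4 sets of cells in both replicates (x axis). The fibrillar part is 74.2% and 76.0% in collagen VI-positive cells and between 33.7% and 43.8% in the other 3 sets.

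Of the 24 collagen genes tested between collagen VI-positive and SOX2-positive cells, 18 were higher in collagen VI-positive cells, where 24.3% of all 12521 genes tested were called higher, and 3 were lower, where 27.0% of all genes were. The other 17 did not pass the filter on low counts, which a gene high in 1 class alone could pass. COL8A2 and COL16A1 passed it only through collagen VI-positive cells, and COL9A1 only through SOX2-positive cells. Their calls are in these counts, and no single test is given for them. The median log2 fold change was 3.50 over these 24 genes and -0.20 over all genes tested. Calls are edgeR's quasi-likelihood test with a Benjamini-Hochberg adjusted p under 0.05, and fold changes are TMM-scaled log2 values with their standard error (SE). The TMM factors were 0.829 and 0.786 for collagen VI-positive sums and 1.38 and 1.3 for SOX2-positive sums. Fitted log2 values between these classes therefore lie above the log2 ratios of the printed CPM, which are not TMM-scaled. With library totals in place of TMM the median of all genes moved to -0.93 and the share of higher genes among those called fell from 47.4% to 20.9% (38.8% with RLE size factors), while the count of higher collagens was 18 in each.

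COL1A1, COL1A2 and COL3A1 had the 3 greatest fold changes of the 24 genes, with type V chains also among those that rose. COL1A1, the main chain of type I collagen, stood at 9903 and 9520.1 CPM in collagen VI-positive cells, 22.8 and 33.1 CPM in SOX2-positive cells, 11.4 and 26.8 CPM in neurons and 30.1 and 59.4 CPM in the remaining cells. COL1A2, its partner chain, stood at 6445 and 6257 CPM in collagen VI-positive cells and at 24.3 and 33.8 CPM in SOX2-positive cells. COL3A1, which forms type III collagen of elastic tissues, stood at 11541 and 11317 CPM in collagen VI-positive cells and at 80.5 and 95.9 CPM in SOX2-positive cells. In each of these 3 genes both values of collagen VI-positive cells lay far above both values of every other class. The log2 differences from SOX2-positive cells were 9.19 (SE 0.20) for COL1A1, 8.52 (SE 0.20) for COL1A2 and 7.76 (SE 0.18) for COL3A1. COL5A1 and COL5A2, chains of the type V collagen that starts fibrils, were higher by 6.51 (SE 0.15) and 4.96 (SE 0.15). COL5A1 reached 909.5 and 811 CPM against 14.9 and 15.7 CPM in SOX2-positive cells.

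Among the other fibrillar chains, COL2A1 and COL24A1 were lower and COL11A1 and COL27A1 higher in collagen VI-positive cells. COL2A1, the chain of type II collagen, which is known from cartilage, notochord and early neuroepithelium, stood at 8.07 and 30.5 CPM in collagen VI-positive cells (29 UMIs in all), 119 and 119 CPM in SOX2-positive cells, 52.9 and 49.6 CPM in neurons and 123 and 107 CPM in the remaining cells. COL2A1 was lower in collagen VI-positive than in SOX2-positive cells (log2 -1.62, SE 0.28, edgeR adjusted p = 3.31e-08), with the groups apart in both replicates. Its size rested on replicate 2 of the collagen VI-positive class: without replicate 2 it was -3.13. Where cells were chosen by 2 or more of 7 mesenchyme markers in place of collagen VI, COL2A1 stood at 69.3 and 70.9 CPM and the call was lost (-0.06). COL11A1, the type XI chain that joins type II in cartilage fibrils, went the other way, at 145 and 71.6 CPM against 64.2 and 46.0 CPM (log2 1.60, SE 0.20). COL24A1, a minor fibrillar chain known from developing bone and cornea, was lower in collagen VI-positive cells, at 32.3 and 9.39 CPM against 73.0 and 73.3 CPM (log2 -1.43, SE 0.33, edgeR adjusted p = 4.74e-05). The COL24A1 value was -2.17 without replicate 1 and -0.45 without replicate 2, and the call was lost when 1 collagen VI UMI was enough for the class (-0.72), when SOX2-positive cells needed 2 UMIs (-0.47), when cells of several rules were kept (-0.75) and when cells were thinned to 2000 UMIs (-0.61). COL27A1, a minor fibrillar chain of cartilage, was higher, at 91.5 and 66.9 CPM against 20.6 and 21.0 CPM (log2 2.59, SE 0.25).

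Type IV genes were found in collagen VI-positive cells, SOX2-positive cells and neurons, and were higher in the first. COL4A1 stood at 2941 and 2549 CPM in collagen VI-positive cells, 148 and 163 CPM in SOX2-positive cells and 112 and 110.1 CPM in neurons. COL4A2, whose chain joins that of COL4A1 in nearly every basement membrane, stood at 1612 and 1374 CPM, 124 and 117 CPM and 79.7 and 83.5 CPM. The order of collagen VI-positive, SOX2-positive and neuron held in both replicates for both genes. COL4A5 and COL4A6, a pair of chains of more specialised basement membranes, stood lower, and COL4A5 reached 226 and 217 CPM in collagen VI-positive cells against 58.5 and 61.0 CPM in SOX2-positive cells. All 4 were higher in collagen VI-positive cells, by 4.86 (SE 0.16) for COL4A1, 4.35 (SE 0.15) for COL4A2, 2.60 (SE 0.16) for COL4A5 and 2.79 (SE 0.19) for COL4A6. COL4A3 and COL4A4, chains known from kidney and lung, had 71 and 67 UMIs over all kept cells and 0 in collagen VI-positive cells. COL18A1, the multiplexin of basement membranes from which endostatin is cut, stood at 3081 and 2576 CPM in collagen VI-positive cells against 115 and 105 CPM in SOX2-positive cells (log2 5.40, SE 0.17).

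Type VI chains defined the class, at 600.1 and 591 CPM for COL6A1, 363 and 398 CPM for COL6A2 and 519 and 468 CPM for COL6A3. They were also read in the cells chosen by mesenchyme markers (57 and 108 cells, of which 34 and 69 were also collagen VI-positive). COL6A1 stood there at 414 and 420.1 CPM against 0.903 and 1.69 CPM in SOX2-positive cells, and COL6A3 at 347 and 329 CPM against 2.03 and 1.23 CPM. Both passed the filter on low counts only through the marker-chosen cells, where they are high, so no test is given for them. COL6A2 was higher than in SOX2-positive cells by 6.06 on the log2 scale (SE 0.19, edgeR adjusted p = 6.24e-211), where 24.0% of 12526 genes were called higher. The marker genes and collagen VI were measured in the same cells. Most of those cells also met the collagen VI rule, so this comparison is not independent of it. COL6A5 and COL6A6, the other type VI chains in the table, had 4 and 16 UMIs in all.

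Cells just inside the collagen VI threshold differed from the rest of the class. Cells with exactly 2 collagen VI UMIs (5 and 14 cells) held COL1A1 at 3019 and 730.4 CPM, those with 1 UMI, just outside (26 and 35 cells), at 69.3 and 376 CPM, and those with 5 or more (31 and 61 cells) at 10612 and 10526 CPM. The cells with 5 or more made up most of the class and set its levels.

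Among the FACIT collagens, COL12A1, which links fibrils in tendon and fascia, stood at 452 and 483 CPM in collagen VI-positive cells, 20.6 and 19.2 CPM in SOX2-positive cells and 5.22 and 5.31 CPM in neurons. It was higher in collagen VI-positive than in SOX2-positive cells by 5.29 (SE 0.16). COL16A1 stood at 161 and 133 CPM in collagen VI-positive cells against 3.67 and 2.69 CPM in SOX2-positive cells. It passed the filter on low counts only through collagen VI-positive cells, where it is high, so no test is given for it. COL9A2, a chain of cartilage type IX collagen, was higher by 2.42 (SE 0.40), but 31.2% of its UMIs in replicate 2 came from 1 cell, it was 0.97 without replicate 2, and the call was lost after thinning (1.57). COL9A1, its partner chain, had 0 UMIs in both collagen VI-positive replicates and 46 and 49 UMIs in SOX2-positive cells. With a floor of 3 UMIs over the pooled class it was at least 3.14-fold higher in SOX2-positive cells. COL9A1 passed the filter on low counts only through SOX2-positive cells, where it is high, so no test is given for it. Its call, which is in the counts above, was lost when 1 collagen VI UMI was enough for the class and with the mesenchyme marker rule. With that marker rule COL9A1 stood at 11.2 and 0.844 CPM, and after thinning it did not pass the filter. COL14A1, a fibril-associated chain of skin and tendon, did not pass the test, with 26.9 and 49.3 CPM in collagen VI-positive cells and 57.1 and 42.4 CPM in SOX2-positive cells. Its fitted value was 0.55 with TMM, -0.18 with library totals, 0.99 without replicate 1 and -0.35 without replicate 2, and it was called higher when SOX2-positive cells needed 2 UMIs (0.70, edgeR adjusted p = 0.0232). No direction is given for it.

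Of the other collagens, COL8A2, a short chain of the membrane under corneal endothelium, stood at 75.3 and 88.0 CPM in collagen VI-positive cells. In SOX2-positive cells it stood at 2.45 and 1.48 CPM. COL8A2 passed the filter on low counts only through collagen VI-positive cells, where it is high, so no test is given for it. COL23A1, a transmembrane collagen, stood at 91.5 and 71.6 CPM against 8.97 and 5.92 CPM (log2 4.22, SE 0.30). Its UMIs lay in only 9 of 40 collagen VI-positive cells in replicate 1 and 20 of 79 in replicate 2. In replicate 1, 35.3% of its 34 UMIs came from 1 cell, and in replicate 2, 11 of its 61 UMIs did. The COL23A1 rise therefore describes the summed class and not most of its cells. COL26A1, a little-studied chain, stood at 108 and 103 CPM against 46.7 and 43.5 CPM (log2 1.95, SE 0.20). Each of these 3 was higher in both replicates. COL7A1, the anchoring fibril chain of skin, had 6 UMIs in collagen VI-positive cells and stood at 20.2 and 19.4 CPM in SOX2-positive cells. COL7A1 did not pass the test (edgeR adjusted p = 0.0660, log2 -1.25), and was called lower with RLE size factors (-1.44) and with library totals (-1.98). COL25A1, a transmembrane collagen known from brain and motor neurons, stood at 108 and 2.35 CPM in collagen VI-positive cells, and 85.0% of the UMIs of replicate 1 came from 1 cell. No call was made for it in that comparison, but COL25A1 was called lower with only cells at 10% or more ribosomal share (-2.06) and higher after thinning (1.43).

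Against neurons, 19 of the 24 collagen genes were higher in collagen VI-positive cells, where 23.0% of all genes were called higher, and 0 were lower, where 25.7% were (edgeR; 0 also at an unadjusted p under 0.05 and 0 with DESeq2, while 1 was called lower with RLE size factors and 2 with library totals). With only cells at 10% or more ribosomal share in every class, 3 were called lower: COL2A1 (-0.88), COL24A1 (-1.52) and COL25A1 (-2.59). The 5 genes without a call were COL2A1, COL7A1, COL9A1, COL24A1 and COL25A1. The 19 include COL8A2 and COL16A1, which passed the filter on low counts only through collagen VI-positive cells. COL14A1 stood at 26.9 and 49.3 CPM against 20.6 and 17.0 CPM in neurons and was higher in collagen VI-positive cells (log2 1.80, SE 0.31, edgeR adjusted p = 2.22e-08), but 0.96 without replicate 2, and the call was lost after thinning. The comparisons with SOX2-positive cells and with neurons share the collagen VI-positive sums.

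**Figure D3:**
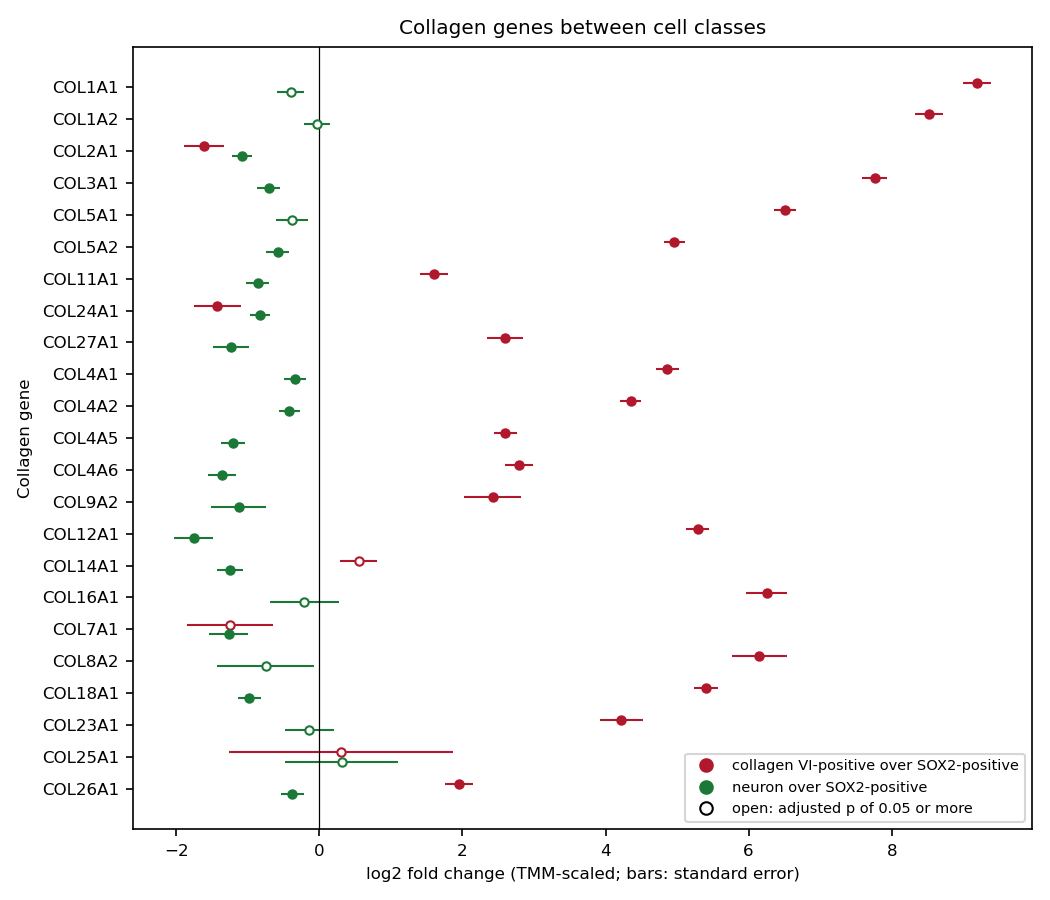
TMM-scaled log2 fold change of 23 collagen genes (x axis, bars are standard errors) for collagen VI-positive over SOX2-positive cells and for neurons over SOX2-positive cells; filled points have an adjusted p under 0.05. COL6A1, COL6A2 and COL6A3, which chose a class, and COL9A1, which had 0 UMIs in it, are left out. COL8A2 and COL16A1 passed the filter on low counts only through collagen VI-positive cells. Their filled points for that class are therefore not to be read as test results.

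Neurons, of which 454 of 935 also held a SOX2 UMI, held less collagen RNA than SOX2-positive cells. Of 27 genes tested, 17 were lower in neurons, where 22.5% of all genes were called lower, and 0 were higher, where 21.9% were. The median was -0.71 over the 27 genes and -0.02 over all genes. At an unadjusted p under 0.05 edgeR still gave 0 higher, DESeq2 called 8 lower and 0 higher on the same sums, and edgeR called 11 lower after each cell was thinned to 2000 UMIs. In edgeR the spread was in effect wholly pooled over genes, so its p-values rest on that pooled spread. The 17 genes were 4 of 4 type IV, 6 of 9 fibrillar, 4 of 5 FACIT, 3 of 6 others and 0 of 3 type VI. The FACIT genes include COL9A1, which passed the filter on low counts only through SOX2-positive cells, where it is high.

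Of the 17 genes called, COL12A1 had the greatest log2 difference, from 20.6 and 19.2 CPM in SOX2-positive cells to 5.22 and 5.31 CPM in neurons (log2 -1.76, SE 0.27, edgeR adjusted p = 6.57e-10). COL4A6 stood at 36.1 and 35.9 CPM against 10.8 and 14.2 CPM (log2 -1.36, SE 0.20), and COL4A5 at 58.5 and 61.0 CPM against 18.9 and 27.1 CPM (log2 -1.21, SE 0.17). COL2A1 was lower by 1.08 on the log2 scale (-1.08, SE 0.14) and COL18A1 by 0.98 (-0.98, SE 0.16). In these genes neither replicate of one class overlapped the other class. COL4A1 (-0.34, SE 0.15, edgeR adjusted p = 0.0444) and COL4A2 (-0.42, SE 0.15, edgeR adjusted p = 0.0121) differed far less, and both calls were lost with DESeq2 and without the replicate block. COL3A1 was lower (-0.71, SE 0.16), at 31.0 and 67.8 CPM against 80.5 and 95.9 CPM, but -0.37 without replicate 1, and that call was lost with DESeq2 and after thinning. COL1A1 and COL1A2 had values of -0.40 (SE 0.19) and -0.03 (SE 0.18) and did not pass the test.

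The share of cells with a UMI followed the same order for COL2A1, at 44.9% ± 2.40 of SOX2-positive cells and 23.5% ± 0.424 of neurons (SD, n = 2), or 20.6% ± 0.141 and 8.73% ± 2.36 once each cell was thinned to 2000 UMIs. COL4A1 was seen in 48.5% ± 1.77 and 38.3% ± 4.17, or 24.4% ± 0.283 and 17.0% ± 1.84 after thinning. In PAG- or PRP-high cells, with median depths of 14016 and 9438 UMIs, 8.35% ± 11.8 of cells had a COL2A1 UMI and 4.17% ± 5.89 a COL4A1 UMI before thinning, and 0 after. Thinning left 740 and 1022 SOX2-positive cells and 415 and 496 neurons.

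COL20A1, a FACIT collagen known mainly from sequence, had nearly all of its few UMIs in neurons. It had 18 and 14 UMIs in neurons, 1 and 0 in SOX2-positive cells and 0 and 0 in collagen VI-positive cells, a pooled ratio of 56.3 over SOX2-positive cells (95% counting interval 9.40 to 2292). Its UMIs fell in 2.74% ± 1.10 of neurons. COL20A1 did not pass the filter on low counts in the fit of all 4 classes. It passed with PAG- or PRP-high cells left out, but only through neurons, where it is high, so no test is given for it. In that alternative, chosen after seeing the data, COL19A1 and COL8A1 passed as well, each only through the class where it is high. No test is given for them either. COL19A1 had 14 and 12 UMIs in neurons and 7 and 11 in SOX2-positive cells. COL8A1 had 3 and 4 UMIs in neurons against 18 and 37 in SOX2-positive cells.

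PAG- or PRP-high cells carried few collagen UMIs of any kind, 14 and 12 in all. Against them, 20 of 24 collagen genes were higher in collagen VI-positive cells, where 21.2% of all genes were called higher, and 0 were lower, where 10.5% were. Of 27 genes, 13 were lower in them than in SOX2-positive cells, where 29.2% were called lower, and 0 were higher, where 16.3% were. Both counts of 0 were also 0 at an unadjusted p under 0.05 in edgeR and with DESeq2. The 20 include COL8A2 and COL16A1, which passed the filter on low counts only through collagen VI-positive cells. The 27 include the type VI chains, which the class rules capped in both classes compared. COL1A1 had 0 and 2 UMIs, COL1A2 2 and 0, COL3A1 2 and 2, and COL18A1 3 and 2. COL3A1 was 6.36 times as high in SOX2-positive cells (95% counting interval 2.48 to 23.4), COL18A1 6.18 times (2.64 to 19.1) and COL4A1 44.5 times (7.98 to 1759). Counting intervals here cover counting error only, and with 12 cells a replicate the class gives wide ones. This class also held AIF1, a gene known from myeloid cells, at 601 and 787 CPM, nearly all of its summed myeloid markers (626 and 787 CPM). The other myeloid markers were near or at 0, with PTPRC at 0 and 0 CPM and CD68 and CSF1R each at 12.9 and 0 CPM.

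Ratios between partner chains were compared between classes only, since 3′ UMI counts were not divided by length and capture can differ from gene to gene. The ratio of COL1A1 to COL1A2 UMIs was 1.54 and 1.52 in collagen VI-positive cells (95% counting intervals 1.46 to 1.62 and 1.47 to 1.58), 0.941 and 0.980 in SOX2-positive cells and 0.700 and 0.763 in neurons. Type I collagen is a trimer with more of the COL1A1 than of the COL1A2 chain. The ratio of COL3A1 to COL1A1 was 1.17 and 1.19 in collagen VI-positive cells and 3.53 and 2.90 in SOX2-positive cells. COL5A2 over COL5A1 was 1.44 and 1.65 in collagen VI-positive cells and 4.53 and 4.62 in SOX2-positive cells. For each of these 3 pairs the counting intervals of collagen VI-positive and SOX2-positive cells did not overlap in either replicate. COL4A5 over COL4A6 was 1.53 and 1.42 in collagen VI-positive cells and 1.62 and 1.70 in SOX2-positive cells, with overlapping intervals. COL4A5 and COL4A6, COL4A1 and COL4A2, COL6A1 and COL6A2, and COL5A2 and COL3A1 are each neighbours in the RefSeq gene order of the ARS-UCD2.0 assembly. The ratio of COL5A2 to COL3A1 differed between classes, at 0.113 and 0.118 in collagen VI-positive cells and 0.838 and 0.759 in SOX2-positive cells.

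**Figure D4:**
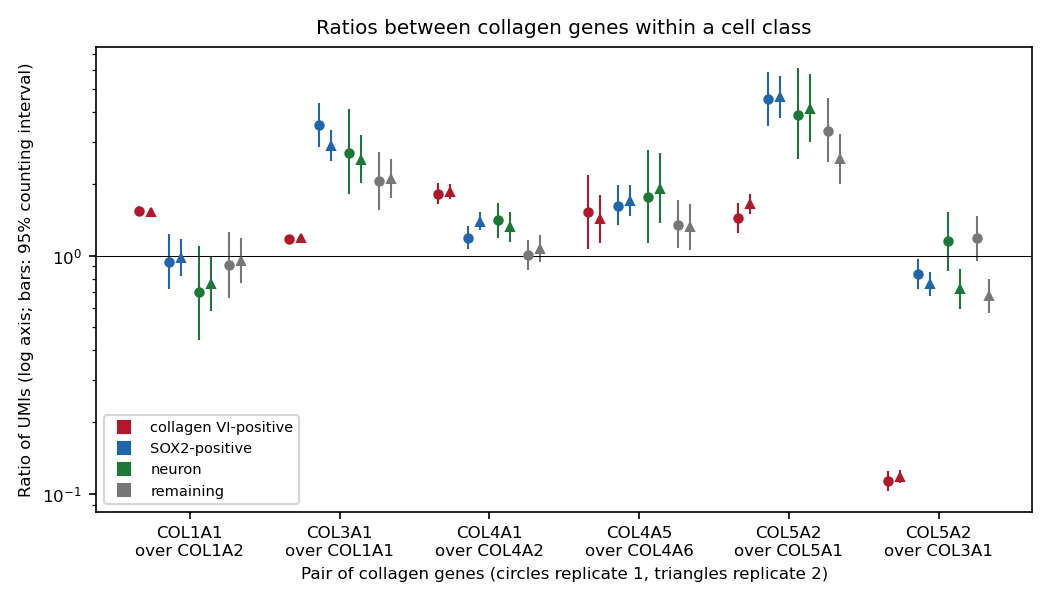
Ratio of UMIs of pairs of collagen genes (log y axis, bars are 95% counting intervals) within 4 sets of cells; circles are replicate 1 and triangles replicate 2. COL1A1 over COL1A2 lies at 1.54 and 1.52 in collagen VI-positive cells and below 1 in the other 3 sets, and COL4A5 over COL4A6 has overlapping intervals.

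The low type I and III levels outside collagen VI-positive cells moved with the replicate. In neurons, CPM in replicate 2 over replicate 1 was 2.35 for COL1A1 (95% counting interval 1.59 to 3.54), 2.15 for COL1A2 (1.55 to 3.04) and 2.19 for COL3A1 (1.72 to 2.79). In the remaining cells the ratios were 1.97, 1.90 and 2.02, and in SOX2-positive cells 1.45, 1.39 and 1.19. In collagen VI-positive cells they were 0.961, 0.971 and 0.981. COL4A1 (0.980), COL4A2 (1.05), COL18A1 (0.967) and COL2A1 (0.938) showed no such shift in neurons, with intervals that spanned 1. The shift in neurons was not limited to types I and III. COL5A2 (1.38, 1.09 to 1.76), COL4A5 (1.43, 1.03 to 2.00) and COL24A1 (1.30, 1.01 to 1.69) were also higher in replicate 2. COL23A1 (0.387, 0.189 to 0.761) and COL25A1 (0.656, 0.534 to 0.806) were lower. The UMIs of collagen VI-positive cells were 3.33% of all in replicate 1 and 5.53% in replicate 2. The mesenchymal gene DCN had a ratio of 2.82 in neurons, 1.18 in the remaining cells and 0.950 in SOX2-positive cells. In collagen VI-positive cells its ratio was 1.29 (1.20 to 1.37). Whether free RNA from collagen VI-positive cells gave part of the COL1A1, COL1A2 and COL3A1 UMIs of other classes was not tested.

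**Figure D5:**
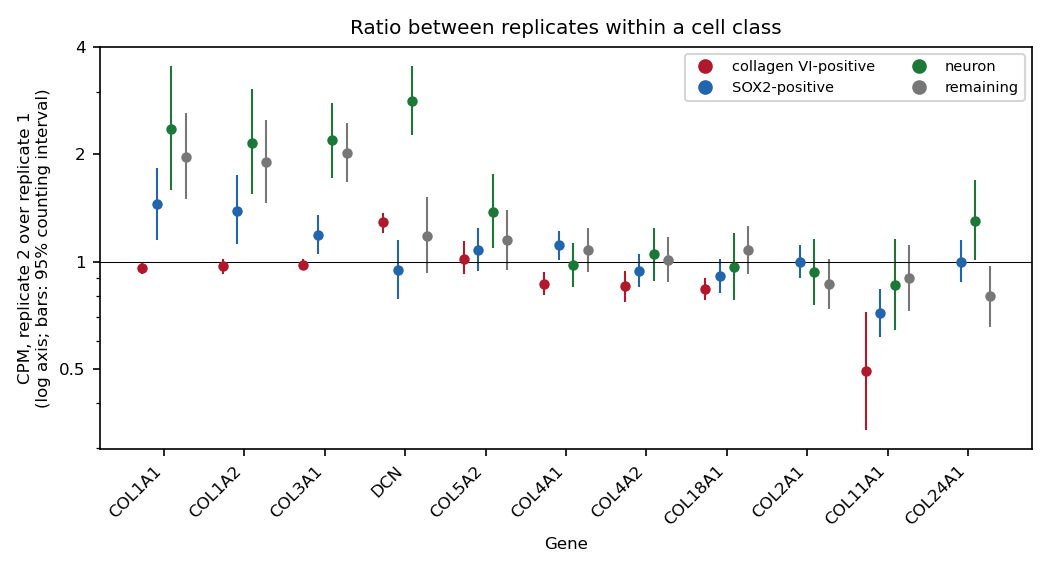
CPM in replicate 2 over replicate 1 (log y axis, bars are 95% counting intervals) for 10 collagen genes and the mesenchymal gene DCN (x axis) in 4 sets of cells. COL1A1, COL1A2 and COL3A1 lie at about 1 in collagen VI-positive cells and between 1.90 and 2.35 in neurons and the remaining cells; a gene with under 10 UMIs in either replicate of a class has no point.

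Within SOX2-positive cells, several collagens differed with the ribosomal protein share of the cell. COL7A1 stood at 31.0 and 34.3 CPM in cells under 10% and at 7.85 and 9.42 CPM in cells at 10% or more, and COL24A1 at 89.5 and 121 CPM against 54.1 and 41.5 CPM. COL3A1 went the other way, at 39.4 and 51.8 CPM against 127 and 125 CPM, as did COL9A1, at 4.97 and 2.35 CPM against 14.4 and 9.42 CPM. COL4A1 stood at 149.6 and 171 CPM against 145 and 159 CPM. These are descriptions without a test. With only cells at 10% or more in every class, 18 collagens were again higher in collagen VI-positive than in SOX2-positive cells.

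The genes that process collagen were read from lists of the pathway. Of 18 tested genes for chain modification and folding, 15 were higher in collagen VI-positive than in SOX2-positive cells and 1 was lower, where 24.3% of all genes were called higher and 27.0% lower. Their median log2 fold change was 2.30, against -0.20 over all genes. FKBP10, a collagen chaperone, stood at 307 and 223 CPM against 16.1 and 17.4 CPM (log2 4.64, SE 0.18). P4HA2, a prolyl hydroxylase subunit, PLOD3, a lysyl hydroxylase, COLGALT1, a collagen galactosyltransferase, and CRTAP, of the prolyl 3-hydroxylation complex, were higher by 3.67 (SE 0.18), 3.63 (SE 0.23), 3.38 (SE 0.25) and 3.12 (SE 0.17). Of 12 genes for export and propeptide cleavage, 7 were higher and 3 lower, the lower share being near the 27.0% of all genes. The 7 include SEC23A (log2 0.46, SE 0.20), at 83.4 and 76.3 CPM against 107 and 87.1 CPM. Its CPM was lower in collagen VI-positive cells in both replicates, so its direction depends on the TMM scaling and none is given for it. PCOLCE, the enhancer of C-propeptide cleavage, led at 250.3 and 297 CPM against 9.78 and 9.96 CPM (log2 5.53, SE 0.19). ADAMTS2, the N-proteinase (2.94, SE 0.41), and SEC24D, a coat protein of export vesicles (2.75, SE 0.19), were also higher. PCOLCE2 stood at 8.07 and 21.1 CPM against 4.08 and 2.29 CPM. It passed the filter on low counts only through collagen VI-positive cells, where it is high. Its call is in the count, and no test is given for it. The C-proteinase TLL1, counted as lower, stood at 0 and 1.17 CPM against 10.8 and 9.69 CPM. It would not have passed the filter without SOX2-positive cells, where it is high, so no test is given for it.

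All 5 tested crosslinking genes were higher in collagen VI-positive cells, where 24.3% of all genes were. LOXL2 stood at 557 and 506 CPM against 21.8 and 21.7 CPM (log2 5.32, SE 0.15) and LOX at 309 and 372 CPM against 28.7 and 22.7 CPM (log2 4.50, SE 0.16). PXDN, which crosslinks type IV collagen, was higher by 3.71 (SE 0.13) and LOXL3 by 1.90 (SE 0.40). LOXL1 stood at 8.07 and 11.7 CPM against 2.65 and 1.75 CPM. It would not have passed the filter on low counts without collagen VI-positive cells, where it is high. Its call is in the count of 5, and no test is given for it. Of 10 receptors, 5 were higher and 2 lower, beside 24.3% and 27.0% of all genes. The collagen-binding kinase DDR2 stood at 194 and 165 CPM against 10.2 and 8.88 CPM (log2 4.95, SE 0.22), while its relative DDR1 (-1.66, SE 0.42) and the integrin chain ITGA2, at 8.07 and 5.87 CPM against 146 and 124 CPM (-3.57, SE 0.38), were lower. The uptake receptor MRC2 was higher (3.81, SE 0.16). The integrin chain ITGA11 stood at 18.8 and 14.1 CPM against 3.67 and 2.83 CPM. It is in the count of higher receptors with the same limit as LOXL1. Of 8 turnover genes, 4 were higher and 2 lower, the lower share again near the 27.0% of all genes. The inhibitor TIMP1 (4.71, SE 0.16), the protease CTSK (3.36, SE 0.31) and the gelatinase gene MMP2 (2.63, SE 0.36) were higher. The collagenase gene MMP14 stood at 5.38 and 9.39 CPM against 4.69 and 2.96 CPM. It is in the count of higher turnover genes with the same limit as LOXL1. The membrane protease MMP15 was lower, at 0 and 1.17 CPM (0 and 1 UMI) against 9.17 and 9.42 CPM (edgeR adjusted p = 0.0291). In neurons against SOX2-positive cells the same lists gave 1 higher and 10 lower for modification, 0 and 6 for export, 0 and 3 for crosslinking, 2 and 5 for receptors and 2 and 2 for turnover, where 21.9% of all genes were called higher and 22.5% lower. The turnover counts lie near these shares. DESeq2 gave 0 higher and 6 lower for modification, 0 and 3 for export, 0 and 3 for crosslinking, 2 and 5 for receptors and 1 and 2 for turnover.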

How the data were processed

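The authors deposited raw UMI counts per gene and cell, not normalized. Per the submitters' processing notes, the tools were Seurat 4.3.0, R 4.1.2 and Cell Ranger, with genome build bosTau9; which annotation they counted on was not given in the sources used here. Deposited cells had 201 to 3999 detected genes, so cells with more are not analysed here. Cells with 500 or more genes and under 20% mitochondrial UMIs were kept (1939 and 2420). No doublet caller was run; cells meeting several class rules were left out instead.

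Counts were summed per class and replicate and tested with edgeR 4.0.16 in R 4.3.3 (TMM, filterByExpr, robust quasi-likelihood test, replicate block, Benjamini-Hochberg over all genes). Classes of 1 replicate come from 1 suspension, which pairs them. COL6A1, COL6A2 and COL6A3 were left out of tests of the class they chose. The test was also run on simulated data with 1 fixed spread and far fewer changed genes than here. That run cannot check the scaling or the pooled spread of these data. DESeq2 1.42.0, other scalings, filters, class rules, thinning and leaving out a replicate were alternatives. The members and lists were chosen with earlier results of these data known. Genes named are the collagens with 100 or more UMIs and, per pathway list, the 5 called with the greatest absolute log2 change; COL19A1, COL20A1 and other collagens under that minimum were named after their values were seen. All 44 symbols matched RefSeq's table.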

Additional observations from a re-analysis of the deposited data

How the results depend on the processing

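The collagen count between neurons and SOX2-positive cells was 17 lower, against 8 with DESeq2 and 11 after thinning to 2000 UMIs; without the replicate block it was 14, with values of -0.38 for COL26A1, -0.34 for COL4A1 and -0.42 for COL4A2 whose calls were lost. In the other 4 comparisons every alternative run gave a count of calls in both directions together within 1.5 times the reported one. The lower calls alone varied more: over SOX2-positive cells they fell from 3 to 1 with 1 collagen VI UMI, with the mesenchyme marker rule and after thinning, and over neurons they rose from 0 to 3 with only cells at 10% or more ribosomal share. Dropping the block left the counts at 21 for collagen VI-positive over SOX2-positive, 19 over neuron and 20 over PAG- or PRP-high cells, and gave 15 in place of 13 for PAG- or PRP-high over SOX2-positive cells. The classes of 1 replicate share a suspension, which is where the pairing comes from.

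Of 1166 values of single collagen genes under the alternatives, leaving out COL9A1 in collagen VI-positive comparisons and every PAG- or PRP-high comparison, 1049 kept their side of the threshold (or, with a replicate left out, moved by less than the spread between replicates), 35 lost and 15 gained a call, 63 moved on leaving out a replicate, and 4 had a call on the opposite side of 0 to the reported value. In all, 50 of the 1166 values differed in sign from the reported one, 11 of them on leaving out a replicate. COL25A1 in collagen VI-positive over SOX2-positive cells was -2.06 with only cells at 10% or more ribosomal share and 1.43 after thinning, and over neurons it was 1.20 after thinning. COL2A1 over neurons was 0.55 with 1 collagen VI UMI and 1.07 with the mesenchyme marker rule. The cause was not tested. Leaving out a replicate gives values without a count. PAG- or PRP-high cells were under 10 in a replicate at 10% ribosomal share, after thinning and with 20 PAG or PRP UMIs, so their comparisons were not run there. Genes with few UMIs in the 119 collagen VI-positive cells are limited by depth.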

Other observations

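The 14 and 18 cells that met several class rules held collagens at 8732 and 13195 CPM, between collagen VI-positive and SOX2-positive cells, and fibrillar genes gave 70.9% and 65.3% of their collagen UMIs. COL25A1 in the remaining cells was lower in replicate 2 than in replicate 1, with a ratio of 0.391 (95% counting interval 0.312 to 0.487), and 21.7% of its UMIs in replicate 1 lay in 1 cell. COL11A1 was lower in replicate 2 in collagen VI-positive cells (0.493, interval 0.336 to 0.724) and in SOX2-positive cells (0.717, interval 0.613 to 0.838). These values come with no test between groups.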
